A study of Homo sapiens with 18 samples.

Results

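AML874 and SEL120-34A, 2 compounds given to OCI-AML1 leukaemia cells, were compared with each other at 8 h and at 24 h, and the question was whether the difference between them grew or shrank with time. For each gene the compound difference is the log2 level in AML874 libraries minus that in SEL120-34A libraries, and the interaction is the difference at 24 h minus the difference at 8 h. The interaction rests on 12 of the 18 RNA-seq libraries of the series: AML874 at 8 h, SEL120-34A at 8 h, AML874 at 24 h and SEL120-34A at 24 h, with 3 libraries in each of the 4 groups. The other 6 libraries, from DMSO-treated cells at 8 h and 24 h, have no weight in that contrast, although they share in the estimate of the spread behind its p-values, and their levels are given below as controls. All 6 groups are of the genotype WT and of 1 cell line, OCI-AML1, an established line of human acute myeloid leukaemia cells. The labels give no dose for either compound, so a difference of compound and a difference of effective dose cannot be told apart. AML874 is known here by its code name alone. Nothing in the labels says that the 3 libraries of a group came from separate cultures, so p-values measure the spread between libraries, which may be technical.

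SEL120-34A is an inhibitor of the Mediator kinases CDK8 and CDK19. Mediator carries signals from transcription factors at enhancers to RNA polymerase II, and its kinase module, made of CDK8 or CDK19 with cyclin C, MED12 and MED13, docks on the complex reversibly and can both restrain and promote transcription. In acute myeloid leukaemia cells, inhibitors of these kinases are known to raise genes close to super-enhancers and genes of maturing myeloid cells, and the title of the series ties the treatment to sensitivity to venetoclax, an inhibitor of BCL2.

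The 12 libraries held 99790399 to 142496541 reads in genes. Of 12 myeloid markers, 9 or 10 had a mean of at least 1 CPM (counts scaled to a library of 1e6 reads) in each group, with PTPRC between 294 and 354 CPM and SPI1 between 171 and 240.0 CPM, while CSF2RA was listed at 0 and CD68 was at most 0.0752 CPM. Of the T and NK cell markers, CD3D, CD3E and CD3G were at most 0.0163 CPM, while NCAM1 was at 67.5 to 88.1, TRAC at 2.17 to 7.26 and NKG7 at 1.32 to 3.45 CPM over the group means. Of the erythroid markers, HBA1, HBA2 and HBB were at 0 and EPOR was at 6.28 to 7.59 CPM. One AML874 library at 24 h, replicate 1, also held 5 of 5 epithelial markers (EPCAM, KRT8, KRT18, KRT19 and CDH1) at a summed 2.01 CPM, against at most 0.0308 CPM in the libraries of the other groups. Replicate 2 of SEL120-34A had higher hypoxia-response genes than the other replicates of its group (mean log2 CPM 4.94 against 4.21 and 4.48 at 8 h, and 5.42 against 4.91 and 5.02 at 24 h). The part of either in the results was not tested, and values without these libraries are given where they differ.

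The compounds came closer together between 8 h and 24 h. At 8 h, 6536 of 20920 genes tested (31.2%) differed between AML874 and SEL120-34A at an adjusted p under 0.05, 3346 with the AML874 level higher (16.0%) and 3190 lower (15.2%). At 24 h, 4109 genes differed (19.6%), 1674 higher (8.0%) and 2435 lower (11.6%). Over the 13471 genes of at least 1 CPM, the median standard error was nearly the same at both times (0.0417 at 8 h and 0.0418 at 24 h). A measure with no threshold of p moved the same way as the counts. Over those genes the standard deviation of the compound difference was 0.226 at 8 h and 0.174 at 24 h. Single libraries showed it too. The root mean square log2 distance between an AML874 and a SEL120-34A library was 0.236 to 0.256 at 8 h and 0.194 to 0.214 at 24 h over 9 pairs each, with no overlap between the times, while libraries of 1 group lay 0.111 to 0.154 apart. All p-values are from edgeR's quasi-likelihood test with Benjamini-Hochberg adjustment over all genes tested, unless another source is named.

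The interaction itself was called for 3704 genes (17.7%), with 1469 higher (7.02%) and 2235 lower (10.7%). The compound difference shrank in 2263 of them, here called converging (10.8% of genes tested): for 2021 it was called at 8 h and not at 24 h, and for 242 it was called at both times and smaller at 24 h. It grew in 854 genes, called diverging (4.08%), of which 804 differed at 24 h alone and 50 at both times. In 397 genes, called crossed (1.9%), it was called at both times in opposite directions. These classes rest on the calls at each time. An estimate could therefore change sign in the other classes too, as for CD69 and RXFP1 below. The remaining 190 passed the test of the interaction and neither test at a single time. Among the 2200 genes that differed at both times, 1511 had the same sign and no interaction call. Of all calls, 140 genes had an interaction above 2-fold in the higher direction and 55 in the lower. Across those 13471 genes the least-squares slope of the difference at 24 h on that at 8 h was 0.344. Pearson's r across genes was 0.447, with genes not independent replicates. Scatter between genes lowers such a slope, so it is not the ratio of the sizes of the differences. For those sizes the standard deviations were 0.226 at 8 h and 0.174 at 24 h. Many genes changed between 8 h and 24 h with either compound, 10946 for AML874 (52.3%) and 10591 for SEL120-34A (50.6%). These counts include any change that time in culture alone would bring. The larger change was not always in the same compound. SEL120-34A had it in 46.5% of converging genes, 40.4% of diverging genes and 46.7% of all genes tested. Without replicate 1 of AML874 at 24 h, the library with epithelial transcripts, 3030 genes were called for the interaction, 1982 of them converging, 598 diverging and 265 crossed. Without replicate 1 of SEL120-34A at 24 h, 3038 were called, 2011 of them converging, 567 diverging and 263 crossed, and without both replicate 2 libraries of SEL120-34A the counts were 3641, 2071, 910 and 409.

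**Figure D1:**
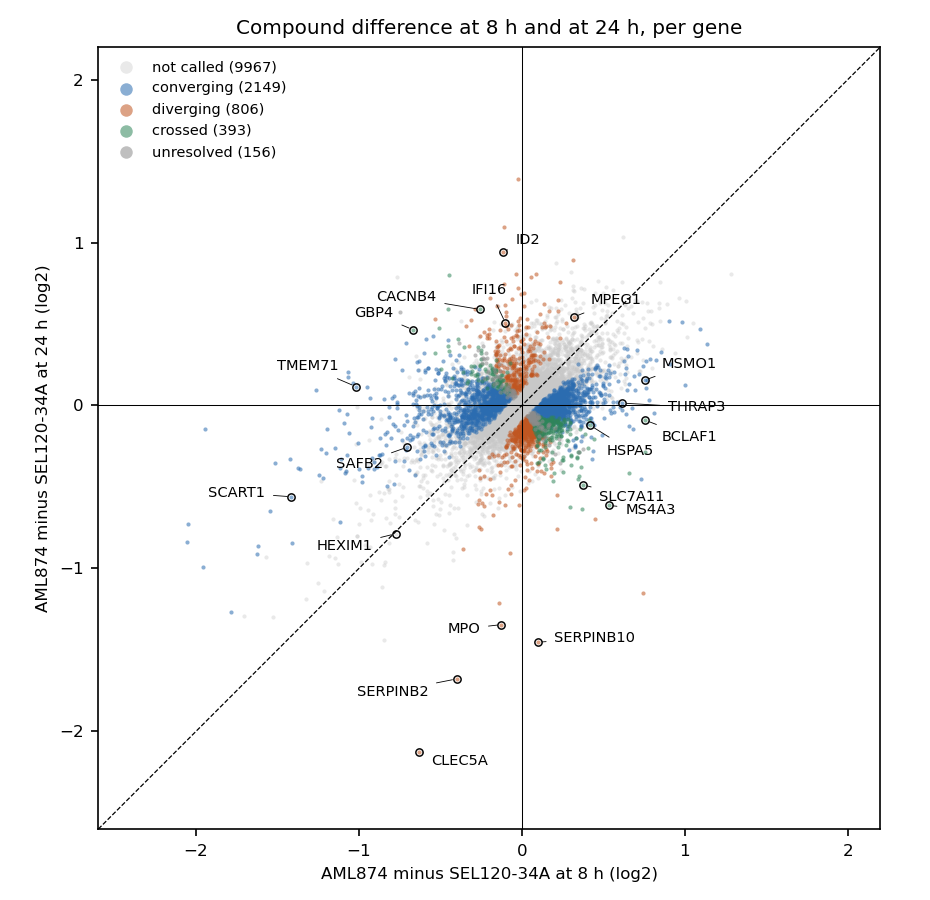
Compound difference (AML874 minus SEL120-34A, log2) at 8 h on the x axis and at 24 h on the y axis for the 13471 genes of at least 1 CPM, 1 point per gene, coloured by class, with the line of equality dashed. Converging genes spread along the x axis and diverging genes along the y axis, as THRAP3 (at 0.62 and 0.014) and CLEC5A (at -0.63 and -2.13) show.

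BCLAF1 and THRAP3, which encode related RNA-binding proteins, came together between the times. BCLAF1, a partner of splicing complexes in the DNA damage response, had the smallest p-value of all genes tested. At 8 h its level was 258, 250.5 and 248 CPM in the AML874 libraries and 147, 148 and 152 CPM in the SEL120-34A libraries, against 311, 309 and 306 CPM with DMSO. At 24 h it was 256, 245 and 269.5 CPM with AML874 and 269.9, 272 and 279 CPM with SEL120-34A. The groups were far apart at 8 h and at 24 h the highest AML874 library lay just under the lowest SEL120-34A library. SEL120-34A cells had risen by 0.88 to near the DMSO level of 24 h (275, 278 and 281 CPM), and AML874 cells had not passed the test of a change (0.029). The interaction was -0.85 ± 0.038 (SE; adjusted p 1.36e-17), from a compound difference of 0.76 at 8 h to -0.091 at 24 h. THRAP3, a close relative of BCLAF1 that acts in splicing and mRNA export, gave 291, 282 and 273 CPM with AML874 and 182, 185 and 185 CPM with SEL120-34A at 8 h. At 24 h its levels were 259, 262 and 263 CPM and 261, 254 and 261 CPM, so that groups far apart at 8 h came to overlap. Its interaction was -0.60 ± 0.035 (adjusted p 1.29e-14), and the difference left at 24 h was 0.014 (95% interval -0.035 to 0.064).

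Of 34 RNA-binding and splicing factor genes tested, 7 had a higher and 12 a lower interaction, and 11 were converging, 5 diverging and 3 crossed. Thus 55.9% were called, against 17.7% of all genes tested and 24.8% of protein-coding genes. RBM14, a coactivator and paraspeckle protein, was at 65.6 ± 3.92 CPM with AML874 and 50.1 ± 1.47 CPM with SEL120-34A (mean ± SD, n = 3), against 158 ± 6.19 CPM with DMSO. By 24 h both had risen, SEL120-34A further (122 ± 2.69 CPM against 108 ± 3.79 CPM), and the compound difference went from 0.39 to -0.17. RBM4, a splicing regulator whose gene lies next to RBM14 and can be joined to it in readthrough transcripts, went the other way, from -0.052 to 0.42 (interaction 0.47 ± 0.060). SAFB2, a scaffold attachment factor that binds RNA, started with a gap of -0.70 and kept -0.26 (interaction 0.45 ± 0.037), and its relative SAFB went from -0.40 to -0.17. SRSF2, a core splicing activator, closed from 0.28 to -0.085. CLK1, a kinase of splicing factors, was a member that widened, from -0.26 to -0.58, with SEL120-34A libraries at 115, 116 and 120.5 CPM at 24 h and AML874 libraries at 76.6, 78.9 and 79.7 CPM.

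**Figure D2:**
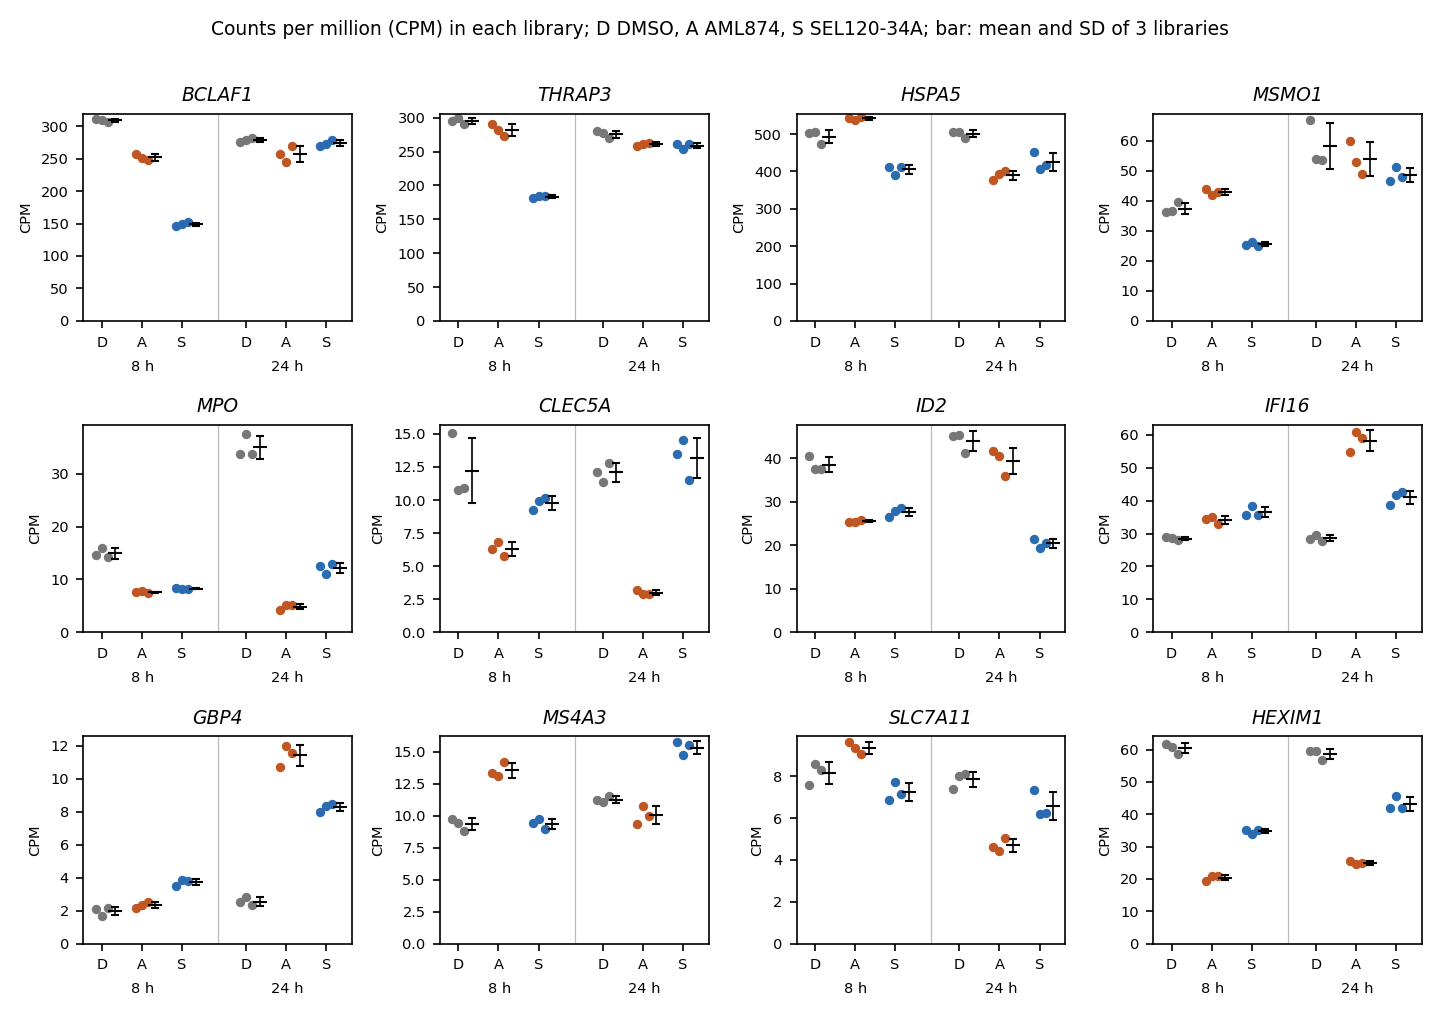
Level in CPM (linear y axis from 0) of 12 genes in each of the 18 libraries, with DMSO (D), AML874 (A) and SEL120-34A (S) at 8 h and 24 h on the x axis; points are libraries and the black mark is the mean with the SD of 3. BCLAF1 and THRAP3 are apart at 8 h and close at 24 h, MPO, CLEC5A, ID2 and IFI16 are apart mainly at 24 h, GBP4, MS4A3 and SLC7A11 change order, and HEXIM1 keeps its gap.

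Chaperones of the endoplasmic reticulum formed the group with the highest share of calls but one. These proteins fold secreted and membrane proteins, and their genes are induced together by the unfolded protein response. Of 22 tested, 14 had a lower and 1 a higher interaction, with a median of -0.193 against 0.000398 for all genes tested. Called members made up 68.2% of the list, against 17.7% of all genes tested and 24.8% of protein-coding genes. At 8 h, 15 of the 22 were higher with AML874 and 2 lower (median 0.134), and at 24 h, 2 were higher and 7 lower (median -0.0532). In all, 10 members converged, 4 crossed and 1, DNAJB9, diverged. Of the 21 members with a RefSeq promoter, 6 held the endoplasmic reticulum stress element, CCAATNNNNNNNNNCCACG or its reverse-strand form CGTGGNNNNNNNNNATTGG, in the 250 bases before the gene start (28.6%, against 22 of 27305 promoters, 0.0806%). All 6 passed the test of the interaction, 5 of them lower and XBP1 higher. Their matches are shown because they are the known response element of this pathway. The stretches, from RefSeq on GRCh38.p14 and written 5′ to 3′ on the gene's strand, have the match in capitals and up to 20 bases on either side in lower case, and HSP90B1 holds 2 matches.
HSPA5 chr9:125241371-125241429 (-): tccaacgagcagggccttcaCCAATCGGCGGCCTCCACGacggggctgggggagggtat
HSP90B1 chr12:103930196-103930359 (+): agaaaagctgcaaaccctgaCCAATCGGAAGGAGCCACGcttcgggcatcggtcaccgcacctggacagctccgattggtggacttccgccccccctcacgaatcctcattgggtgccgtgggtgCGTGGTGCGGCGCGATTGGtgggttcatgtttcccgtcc
CALR chr19:12938364-12938422 (+): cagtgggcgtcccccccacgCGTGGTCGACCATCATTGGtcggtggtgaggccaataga
CANX chr5:179698758-179698816 (+): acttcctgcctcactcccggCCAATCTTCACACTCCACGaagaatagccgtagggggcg
CRELD2 chr22:49918534-49918592 (+): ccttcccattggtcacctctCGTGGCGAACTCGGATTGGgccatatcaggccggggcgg
XBP1 chr22:28800583-28800641 (-): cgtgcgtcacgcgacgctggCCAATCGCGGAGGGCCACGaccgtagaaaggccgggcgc

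HSPA5, the master chaperone BiP of the endoplasmic reticulum, whose match ends 48 bases before the start, stood at 542, 538 and 546 CPM with AML874 and 413, 392 and 411 CPM with SEL120-34A at 8 h. DMSO libraries held 502, 504 and 474 CPM, so AML874 lay above and SEL120-34A below the control. At 24 h, AML874 libraries held 377, 394 and 400 CPM and SEL120-34A libraries 452, 405 and 418 CPM. The order had turned over, although the lowest SEL120-34A library was close to the highest AML874 library, and the interaction was -0.54 ± 0.046 (adjusted p 2.94e-09). CALR, the lectin chaperone calreticulin, also crossed, from 0.41 to -0.092 (interaction -0.50 ± 0.034). Its level in SEL120-34A cells rose by 0.59 with time, from 1150 ± 14.9 to 1735 ± 40.2 CPM. HSP90B1, the resident HSP90, converged from 0.26 to -0.052, and CANX, the membrane-bound partner of calreticulin, narrowed from 0.25 to 0.11. CRELD2, a secreted stress-induced isomerase, narrowed from 0.41 to 0.19. XBP1, a transcription factor of the response, was the member with a higher interaction (0.13 ± 0.041), from -0.19 at 8 h to -0.061 at 24 h. MANF, a secreted protein that binds BiP, crossed from 0.26 to -0.088, and HYOU1, a nucleotide exchange factor of BiP, closed from 0.33 to 0.052.

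Chaperones of the cytosol and mitochondria had a lower interaction too, and ended lower with AML874. Of 20 heat shock chaperones tested, 14 had a lower and 0 a higher interaction (median -0.175), with 6 diverging, 5 converging and 3 crossed. In this list 70.0% were called, against 17.7% of all genes tested and 24.8% of protein-coding genes. At 8 h, 8 members were higher with AML874 and 1 lower, and at 24 h, 0 were higher and 12 lower. HSP90AA1, the inducible cytosolic HSP90, did not pass the test at 8 h (0.012, 95% interval -0.043 to 0.066), and at 24 h it stood at 1455, 1509 and 1515 CPM with AML874 and 1772, 1674 and 1779 CPM with SEL120-34A. Both lay below the DMSO libraries (2270, 2285 and 2288 CPM), and AML874 was the lower in every library. HSPA1A, the stress-induced HSP70, had an interaction of -0.41 ± 0.082, and its near-identical copy HSPA1B -0.32 ± 0.081; reads may be shared between them, so the split is uncertain. HSPA8, the constitutive HSP70, closed from 0.14 to 0.0093. The heat shock element GAANNTTCNNGAA was found, on either strand, in 2 of 18 promoters of the list, those of HSPA8 and CHORDC1, and in 0.439% of all promoters.

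Genes of amino acid supply had the highest share of crossed members of the lists (6 of 30). ATF4 drives transporters, synthesis enzymes and transfer RNA synthetases when amino acids are short. Of 30 such genes, 16 had a lower interaction and 0 a higher one (median -0.149), with 4 diverging, 4 converging and 2 called at neither time. The calls made up 53.3%, against 17.7% of all genes tested and 24.8% of protein-coding genes. SLC7A11, the cystine importer, gave 9.66, 9.38 and 9.08 CPM with AML874 and 6.88, 7.72 and 7.14 CPM with SEL120-34A at 8 h. At 24 h they gave 4.62, 4.44 and 5.06 CPM and 7.35, 6.19 and 6.24 CPM. AML874 was above every SEL120-34A library at the first time and below every one at the second, and the interaction was -0.86 ± 0.10 (adjusted p 1.07e-07). SLC7A5, the large neutral amino acid transporter, crossed from 0.18 to -0.33, and SLC7A1, the arginine and lysine transporter, from 0.21 to -0.19. PSAT1, an enzyme of serine synthesis, opened from 0.067 to -0.22, and ATF4 itself had an interaction of -0.15 ± 0.043. An ATF element, TGATGNAA, lay in 3 of 25 promoters of the list, none of a called gene, and in 3.19% of all promoters. Of 20 NRF2 targets, the antioxidant genes, 7 were lower and 1 higher (40.0% called). CAT, which encodes catalase, crossed from 0.17 to -0.21.

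**Figure D3:**
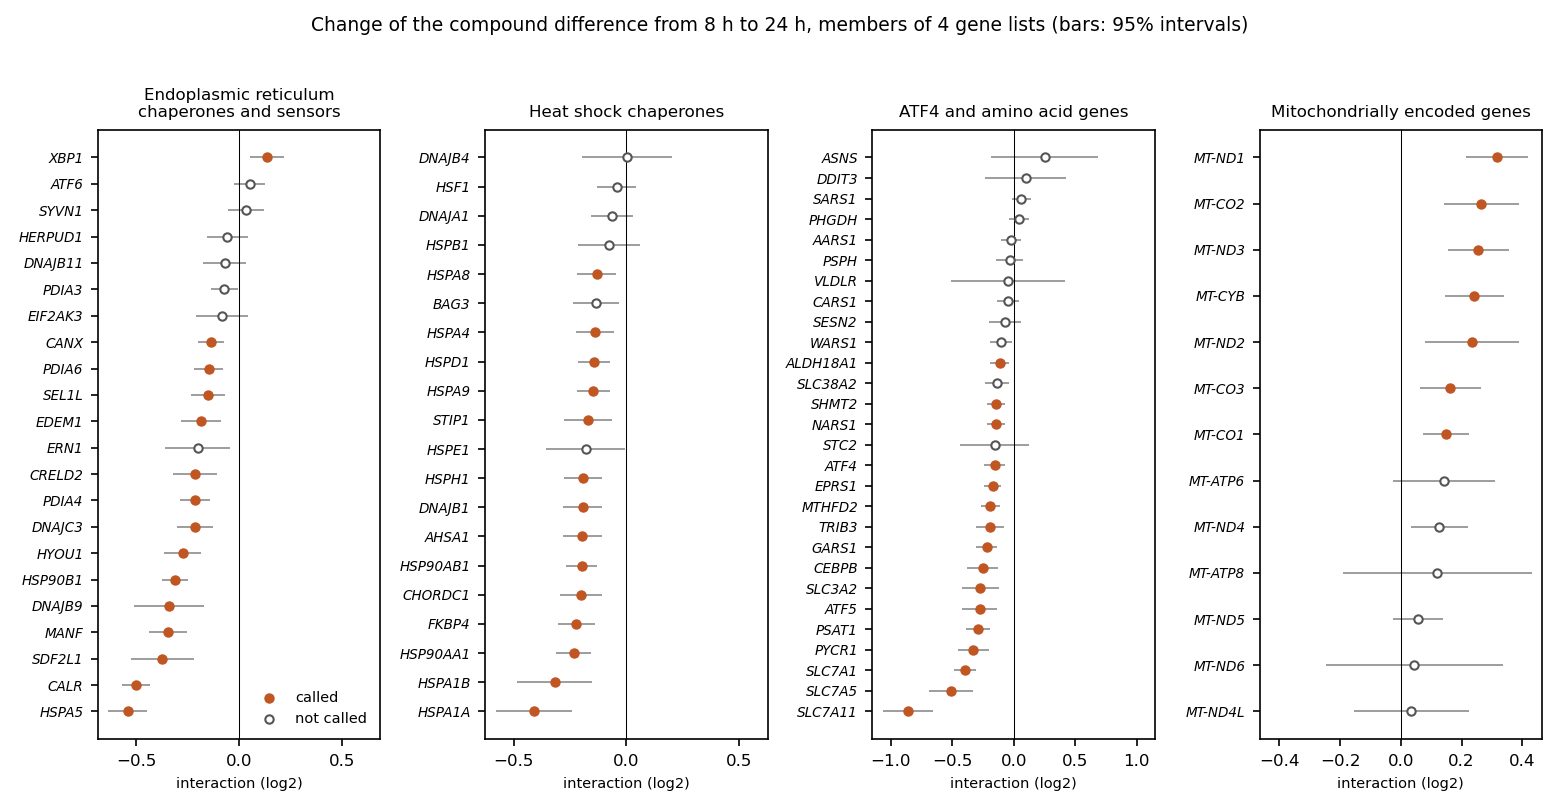
Interaction (log2, x axis, with 95% intervals and a scale of its own in each panel) for each tested member of 4 gene lists of at least 1 CPM in a compound group, which leaves out CHAC1 and NUPR1 of the ATF4 list; filled points passed an adjusted p under 0.05. In the panels of chaperones and ATF4 genes the filled points lie left of 0, with XBP1 the exception, and in the mitochondrial panel the 7 filled points lie right of it.

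More sterol synthesis genes were called higher with AML874 at 8 h than at 24 h. SREBP2 raises them together when membrane cholesterol is low. Of 31 tested, 12 had a lower and 2 a higher interaction (median -0.0876), with 9 converging. Calls covered 45.2% of the list, against 17.7% of all genes tested and 24.8% of protein-coding genes. At 8 h, 15 were higher with AML874 and 2 lower (16.0% and 15.2% of all genes tested), and at 24 h, 5 were higher and 3 lower (8.0% and 11.6% of all). MSMO1, a demethylating enzyme of the pathway, stood at 44.0, 42.0 and 42.9 CPM with AML874 and 25.2, 26.3 and 24.97 CPM with SEL120-34A at 8 h, and at 59.9, 52.9 and 49.0 CPM and 46.5, 51.1 and 47.9 CPM at 24 h. The groups were separate at 8 h and overlapped at 24 h, and the interaction was -0.60 ± 0.12 (adjusted p 0.00462). INSIG1, which retains SREBP in the endoplasmic reticulum, went from 0.37 to -0.19, a value that no longer passed the test (adjusted p 0.0754). SQLE, squalene epoxidase, closed from 0.54 to 0.13, and ACACA, which commits carbon to fatty acids, crossed from 0.28 to -0.12. The rise in SEL120-34A cells was 0.93 for MSMO1 and 1.29 for INSIG1, and DMSO cells rose as well, from 162 ± 5.18 to 274 ± 25.4 CPM for INSIG1. A sterol regulatory element of the letters TCACCCCAC was found in 1 of 24 promoters of the list, that of SREBF2, which was not called, and in 0.348% of all.

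Replication and nucleolar genes were more often higher with AML874 at 8 h and lower at 24 h. Of 46 DNA replication and G1/S genes, 21 had a lower and 0 a higher interaction (median -0.111, 45.7% called). At 8 h, 23 were higher with AML874 and 2 lower, and at 24 h, 3 were higher and 13 lower. POLA1, the catalytic subunit of the primase-polymerase, crossed from 0.25 to -0.10 (interaction -0.35 ± 0.046), and MCM5 and MCM6, of the replicative helicase, crossed from 0.11 to -0.12 and from 0.086 to -0.14. MCM7, of the same helicase, opened: its libraries held 540.3 ± 6.96 and 531 ± 6.38 CPM at 8 h and 546 ± 13.9 and 628 ± 18.0 CPM at 24 h for AML874 and SEL120-34A. Of 36 MYC and nucleolar genes, 17 were lower and 2 higher (median -0.141, 52.8% called), and 15 converged. The count of lower members was 11 with library totals alone as the scaling, 11 without replicate 1 and 11 without replicate 3 of SEL120-34A at 24 h. UTP20, a ribosome assembly factor, closed from 0.33 to -0.080, and POLR1A, the largest subunit of RNA polymerase I, from 0.25 to -0.016. MYC itself did not pass the test of the interaction (-0.027, 95% interval -0.10 to 0.045) and was lower with AML874 at both times (-0.087 and -0.11). Of 37 mitosis genes, 7 were higher and 3 lower (27.0% called, against 17.7% of all genes tested and 24.8% of protein-coding genes). With AML874, 22 of the 37 were lower at 8 h and 19 at 24 h. NUF2, of the outer kinetochore, closed from -0.29 to -0.079.

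The largest converging genes with a higher interaction are given next. A start lower with AML874 is built into that class and is not a separate result. TMEM71, a membrane protein of unknown function, gave 4.77, 4.72 and 4.78 CPM with AML874 and 9.43, 9.26 and 10.2 CPM with SEL120-34A at 8 h. At 24 h the values were 3.67, 3.72 and 3.40 and 3.33, 3.05 and 3.54 CPM, overlapping with each other and with DMSO (3.74, 3.12 and 3.32 CPM). The gap of -1.02 had closed (interaction 1.14 ± 0.11, adjusted p 2.64e-09). SCART1, a scavenger receptor family member, kept -0.56 of an initial -1.41. H2AC6, a histone gene with a polyadenylated transcript, went from -0.76 to 0.019, CD69, an early activation marker of leukocytes, from -0.71 to 0.38, and SLC44A2, a choline transporter, from -0.58 to 0.23. RXFP1, the relaxin receptor, closed from -0.59 to 0.41, but its call was lost in 6 of 23 alternatives, among them without replicate 1 of AML874 at 24 h (the highest adjusted p was 0.0704). CSF1R, the receptor of the macrophage growth factor, narrowed from -0.64 to -0.28, and MITF, a regulator of lysosome genes, from -0.86 to -0.30. Converging genes with a lower interaction also included TNFRSF8, the receptor CD30, at -0.59 ± 0.10, and ACTR3B, an actin-related protein, at -0.54 ± 0.068.

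The diverging genes included several of the granulocyte and monocyte lineage. MPO, the peroxidase of neutrophil granules, was at 7.55, 7.72 and 7.50 CPM with AML874 and 8.43, 8.23 and 8.17 CPM with SEL120-34A at 8 h. At 24 h it was at 4.25, 5.07 and 5.07 CPM with AML874 and 12.6, 11.0 and 12.8 CPM with SEL120-34A, while DMSO cells had reached 33.6, 37.6 and 33.7 CPM. The compounds were close at 8 h (-0.13, adjusted p 0.161) and well apart at 24 h (-1.35), and the interaction was -1.22 ± 0.095 (adjusted p 1.24e-10). MPO fell in AML874 cells with time (-0.67) and rose in SEL120-34A cells (0.55). In bulk RNA, fewer MPO-positive cells and less MPO RNA per cell cannot be told apart, and the same holds for every gene here. CLEC5A, a myeloid lectin that signals through DAP12, had levels of 6.28, 6.79 and 5.79 and 9.22, 9.95 and 10.2 CPM at 8 h. They were 3.22, 2.88 and 2.92 and 13.5, 14.6 and 11.5 CPM at 24 h, with DMSO at 12.1, 11.4 and 12.8 CPM. The gap widened from -0.63 to -2.13 (interaction -1.49 ± 0.18, adjusted p 5.27e-05), and SEL120-34A cells stayed near the control.

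SERPINB10 and SERPINB2, protease inhibitors of monocytic cells, opened through SEL120-34A, which ended above both other treatments. SERPINB2 was at 2.85, 2.59 and 2.74 CPM with AML874, 2.69, 2.01 and 2.57 CPM with DMSO and 9.35, 9.51 and 7.42 CPM with SEL120-34A at 24 h. At 8 h all 3 treatments lay between 1.41 and 2.50 CPM. The interaction was -1.28 ± 0.22, and for SERPINB10 it was -1.55 ± 0.16; the annotated spans of these neighbours share 6717 bases on the same strand of chromosome 18, so how reads in that stretch were assigned is uncertain. MGAM, a digestive glucosidase also made by granulocytes, had an interaction of -0.83 ± 0.12, and CLEC5A lies inside its span on the opposite strand, and the counts used are strand-specific. TSHZ3, a zinc finger transcription factor, opened from 0.12 to -0.40. Of 16 granule protein genes tested, 8 had a lower and 1 a higher interaction (median -0.241). Calls covered 56.2% of the list, against 17.7% of all genes tested and 24.8% of protein-coding genes. LYZ, lysozyme, crossed from 0.090 to -0.25, SRGN, the granule proteoglycan, from 0.18 to -0.11, and CYBB, the catalytic subunit of the phagocyte oxidase, widened from -0.18 to -0.55. NCF1, an oxidase subunit with near-identical pseudogenes that make its count uncertain, was the member with a higher interaction (0.40 ± 0.081).

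Regulators of the lineage moved as well. Of 23 myeloid transcription factor genes, 6 had a higher and 9 a lower interaction. Calls covered 65.2% of the list, against 17.7% of all genes tested and 24.8% of protein-coding genes. It had the highest share of diverging members of any list with over 20 tested (10 of 23). ID2, a dominant-negative partner of E proteins, was the diverging gene with the largest higher interaction among those of at least 5 CPM. At 8 h it stood at 25.3, 25.4 and 25.8 CPM with AML874 and 26.6, 27.9 and 28.5 CPM with SEL120-34A. At 24 h the values were 41.6, 40.5 and 35.9 and 21.5, 19.4 and 20.5 CPM. AML874 libraries had returned most of the way to DMSO (45.2, 45.4 and 41.2 CPM) and SEL120-34A libraries had gone lower still, which gave an interaction of 1.06 ± 0.070 (adjusted p 4.17e-11). CEBPE, a factor of late granulocyte maturation, opened from -0.086 to -0.51, with SEL120-34A at 51.8 ± 1.54 CPM against 36.3 ± 1.42 CPM with AML874 and 38.7 ± 1.498 CPM with DMSO at 24 h. NFE2, a factor of platelet and red cell precursors, widened from -0.27 to -0.74. ZEB2, a repressor active in monocytes, crossed from 0.23 to -0.18, and MEF2C, a factor linked to leukaemia stem cells, crossed the other way, from -0.27 to 0.15. SPI1, the master regulator PU.1, opened by a small amount (0.031 to -0.11). The count of lower members was 5 without replicate 2 of AML874 at 8 h and 5 without both replicate 2 libraries of SEL120-34A.

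Of 25 monocyte and macrophage genes tested, 5 had a higher and 2 a lower interaction, against 7.02% higher and 10.7% lower over all genes tested. MPEG1, the pore-forming perforin-2 of macrophages, rose with time in both compounds, by 1.17 and 0.95. At 24 h it reached 213, 207 and 199.6 CPM with AML874 and 140.3, 147 and 138 CPM with SEL120-34A, against 39.4, 37.2 and 37.8 CPM with DMSO. The gap widened from 0.32 to 0.54 (interaction 0.22 ± 0.047). MS4A4A, a tetraspan protein of macrophages, opened from -0.072 to 0.15, and MS4A7, of the same family, from -0.018 to 0.49. CCR1, a chemokine receptor, opened from -0.023 to 0.72 (interaction 0.74 ± 0.21, adjusted p 0.0269), and lost its call in 8 of 23 alternatives, with a highest adjusted p of 0.0729. Other genes with a higher diverging interaction were TMEM263, a small membrane protein linked to bone growth (0.64 ± 0.19, call lost in 11 of 23 alternatives), and NEB, the muscle protein nebulin (0.58 ± 0.13), whose call was lost when reads of both strands were counted (adjusted p 0.389). CCR1 and TMEM263 each lost the call without replicate 1 of AML874 at 24 h, the library with epithelial transcripts. They lost it as well without other single libraries of both compounds. Among these were replicate 2 of AML874 at 24 h, replicate 2 of SEL120-34A at 8 h and replicate 1 of SEL120-34A at 24 h.

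Interferon-related genes had more higher than lower interactions. IFI16, a nuclear DNA sensor of the interferon response, was at 34.4, 35.0 and 32.8 CPM with AML874 and 35.6, 38.4 and 35.7 CPM with SEL120-34A at 8 h. The levels at 24 h were 54.8, 60.8 and 59.1 and 38.7, 41.6 and 42.6 CPM, with DMSO at 28.3, 29.5 and 27.7 CPM. It opened from -0.10 to 0.51 (interaction 0.61 ± 0.057, adjusted p 2.64e-09). GBP4, a guanylate-binding protein, had 2.16, 2.36 and 2.54 CPM with AML874 and 3.52, 3.86 and 3.82 CPM with SEL120-34A at 8 h. By 24 h these were 10.7, 12.0 and 11.5 and 7.98, 8.34 and 8.44 CPM, both far above DMSO (2.54, 2.80 and 2.31 CPM). SEL120-34A was ahead at 8 h and AML874 at 24 h in every library, and the interaction was 1.13 ± 0.12 (adjusted p 1.08e-08). Of 16 interferon-gamma and GBP genes tested, 6 had a higher and 1 a lower interaction, with the highest median of the lists, 0.324. Thus 43.8% were called, against 17.7% of all genes tested and 24.8% of protein-coding genes. IRF1, the first transcription factor induced by interferon-gamma, crossed from -0.18 to 0.19, and GBP3 from -0.23 to 0.22. The lower call, CXCL10, rests on very few reads: its group means were 0.124 CPM with AML874 and 0 CPM with SEL120-34A at 8 h.

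The gamma-activated site TTCNNNGAA, a known element of such genes, was found in 4 of 9 promoters of the list, those of GBP3, IRF1, FCGR1A and ICAM1, and in 6.78% of all promoters. IRF1 and GBP3 were the called ones, both crossed, and their sites are shown with up to 20 flanking bases in the same form as above. None of the matches printed here overlaps a match of another motif searched.
IRF1 chr5:132490869-132490917 (-): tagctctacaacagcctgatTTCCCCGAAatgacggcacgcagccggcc
GBP3 chr1:89022867-89022901 (-): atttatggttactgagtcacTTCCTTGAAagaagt

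The match of IRF1 ends 116 bases and that of GBP3 7 bases before the RefSeq start. The response element of type I interferon genes, TTTCNNTTTC, was common among the 34 interferon-stimulated genes with a promoter (20, or 58.8%, against 3.07% of all promoters) but only IFIT3 and HERC5 of those 20 were called. Of 45 interferon-stimulated genes tested, 10 had a higher and 1 a lower interaction (median 0.125). Thus 24.4% were called, against 17.7% of all genes tested and 24.8% of protein-coding genes. The higher count was 4 without replicate 1 of AML874 at 8 h and 5 without replicate 2 of SEL120-34A at 8 h. It was 6 without replicate 3 of AML874 at 8 h, replicate 1 of AML874 at 24 h, replicate 3 of SEL120-34A at 24 h or both replicate 2 libraries of SEL120-34A. IRF7, a factor that amplifies the response, closed from -0.66 to -0.076, and STAT2, of the complex that binds the element, from -0.36 to -0.043. MX1, an antiviral GTPase, opened from -0.39 to 0.47 at under 1 CPM in all groups of compound-treated cells.

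Genes of antigen presentation were called mainly in the same direction. HLA-DPA1 and HLA-DPB1, the chains of the class II molecule HLA-DP, widened from 0.17 to 0.29 and from 0.13 to 0.29. HLA-DMA, which loads class II peptides, opened from -0.014 to 0.36, and CTSS, the protease that clears the invariant chain, crossed from -0.16 to 0.18. Of 14 class II genes tested, 4 had a higher and 0 a lower interaction. Thus 28.6% were called, against 17.7% of all genes tested and 24.8% of protein-coding genes. At 24 h, 9 of them were higher with AML874. HLA-DPA1 lost its call in 3 of 23 alternatives, among them without replicate 1 of AML874 at 24 h. For class I, 6 of 20 were higher and 1, CALR, lower (35.0% called). ERAP2, which trims peptides, opened from 0.0034 to 0.33, PSMB9, of the immunoproteasome, from -0.047 to 0.23, and B2M, the class I light chain, crossed from -0.094 to 0.071. Of 30 lysosome and autophagy genes, 7 were higher and 1 lower (26.7% called), or 11 higher with library totals alone or with a filter of 1 CPM. NEU1, lysosomal sialidase, crossed from -0.14 to 0.18.

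Transcripts of the mitochondrial genome were higher with AML874 at 24 h. The mitochondrial genome is transcribed as long polycistronic RNAs. Of its 13 protein-coding genes 7 had a higher and 0 a lower interaction (median 0.148, 53.8% called). At 8 h, 4 were higher with AML874, and at 24 h, 12. MT-ND1, a subunit of complex I, was at 3191, 3337 and 3304 CPM with AML874 and 3176, 3057 and 3273 CPM with SEL120-34A at 8 h. By 24 h the levels were 3615, 3361 and 3615 and 2877, 2747 and 2593 CPM, so that overlapping groups had come apart (interaction 0.32 ± 0.049). The share of all gene counts from the mitochondrial genome was 6.54 to 6.74% with AML874 and 6.34 to 6.49% with SEL120-34A at 8 h, and 7.74 to 8.16% and 6.34 to 6.82% at 24 h. Of 37 nuclear oxidative phosphorylation genes, 2 were higher and 5 lower, with a median of -0.00322. The share called was 18.9%, against 17.7% of all genes tested and 24.8% of protein-coding genes. The lower count was 3 under library totals alone or without replicate 2 of SEL120-34A at 8 h. It was 8 without replicate 2 of SEL120-34A at 24 h. Of 29 mitochondrial ribosomal protein genes, 0 were higher and 7 lower (24.1% called). The lower count was 11 without replicate 2 of SEL120-34A at 24 h. The part of the mitochondrial share in other results was not tested.

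The crossed gene with the most negative interaction of at least 5 CPM was a myeloid one. MS4A3, a membrane protein of granulocyte-monocyte progenitors, gave 13.4, 13.1 and 14.2 CPM with AML874 and 9.40, 9.73 and 8.96 CPM with SEL120-34A at 8 h. The 24 h values were 9.34, 10.8 and 9.97 and 15.7, 14.7 and 15.5 CPM. AML874 was above all SEL120-34A libraries at 8 h and below them at 24 h (interaction -1.15 ± 0.078, adjusted p 1.25e-12). TSPOAP1, which encodes a protein that binds the mitochondrial translocator protein, crossed from 0.37 to -0.64. Its gene lies 20292 bases from MPO on the same strand of chromosome 17, and both fell between 8 h and 24 h with AML874 (-0.67 and -0.68) and rose with SEL120-34A (0.55 and 0.33). STOX2, a winged helix protein, crossed from 0.29 to -0.62. In the higher direction beside GBP4 were CACNB4, a calcium channel subunit, from -0.25 to 0.59, and FILIP1L, a filamin-binding protein homologue, from -0.50 to 0.23. Lysophospholipid receptor genes held further crossings: S1PR3, a sphingosine 1-phosphate receptor, from 0.33 to -0.20, and LPAR4, a lysophosphatidic acid receptor, from 0.34 to -0.33.

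The EGR genes, which are immediate early genes, had large but imprecise interactions. EGR1, a transcription factor induced within minutes of growth signals, was at 4.39, 4.93 and 4.81 CPM with AML874 and 7.43, 9.30 and 6.99 CPM with SEL120-34A at 8 h. Its 24 h levels were 18.5, 15.3 and 13.2 and 8.23, 12.9 and 10.6 CPM, with DMSO at 129, 101 and 115 CPM. Every compound library was far below the control, AML874 lay under SEL120-34A at 8 h and above it at 24 h without overlap, and the interaction was 1.33 ± 0.37 (adjusted p 0.0246), although the difference was called at neither time. The call was lost in 4 of 23 alternatives, without replicate 1 of AML874 at 8 h or at 24 h, replicate 2 of SEL120-34A at 8 h or replicate 1 of SEL120-34A at 24 h (highest adjusted p 0.066). EGR2, a relative of EGR1, had 2.18 ± 0.41 with group means of at most 0.915 CPM with either compound. EGR3, also a relative, had 2.11 ± 0.65 with means of at most 0.252 CPM and lost its call in 3 of the 21 alternatives that tested it, among them without replicate 1 of AML874 at 24 h. JUNB and KLF4, immediate early transcription factors of other families, went the other way, with -0.28 ± 0.051 (adjusted p 0.000171) and -0.54 ± 0.13 (adjusted p 0.00307). Of 24 immediate early and AP-1 genes tested, 4 were higher and 2 lower (median 0.0832), and 1 was higher without replicate 1 of AML874 at 24 h or at 8 h (2 without replicate 1 of SEL120-34A at 24 h).

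HEXIM1, the inhibitor of the elongation kinase P-TEFb, was at 19.4, 20.8 and 20.8 CPM with AML874 and 35.2, 34.0 and 35.1 CPM with SEL120-34A at 8 h. Its levels at 24 h were 25.7, 24.5 and 24.9 and 41.9, 45.8 and 42.0 CPM, and DMSO libraries held 59.6, 59.7 and 56.8 CPM. The order was DMSO, SEL120-34A, AML874 at both times with no overlap, and the compound difference was -0.78 and -0.79 (interaction -0.012, 95% interval -0.12 to 0.10). Of 36 P-TEFb, BET and elongation genes, 8 had a lower and 0 a higher interaction. Thus 22.2% were called, against 17.7% of all genes tested and 24.8% of protein-coding genes. BRD2, a bromodomain reader, opened from 0.0051 to -0.16 and CDK12, an elongation kinase, from 0.017 to -0.20. CD34, the stem cell antigen, rose with both compounds between the times and was lower with AML874 at both (-0.62 and -0.30), and its interaction did not pass after adjustment (0.32, adjusted p 0.108), although its unadjusted 95% interval, 0.041 to 0.60, left out 0. GPR174, a lysophosphatidylserine receptor, had an interaction of 0.20 that did not pass (95% interval -0.0039 to 0.41) and reached 16.0 ± 0.824 and 15.4 ± 0.238 CPM at 24 h.

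In the kinase module, MED13 was the only 1 of 6 genes called, closing from 0.19 to -0.053 (interaction -0.25 ± 0.043). CDK8 and CDK19, the targets of SEL120-34A, had interactions of -0.013 (95% interval -0.11 to 0.082) and 0.014 (95% interval -0.14 to 0.16), and neither passed. CCNC, MED12 and MED13L had -0.015, 0.044 and -0.017, none of which passed. Of 33 Mediator genes, 4 were lower and 0 higher (12.1% called, under the 17.7% of all genes tested). For the response to venetoclax, BCL2, its target, was higher with AML874 at 8 h (0.10, adjusted p 0.00889) and at -0.015 at 24 h, and the interaction of -0.11 ± 0.041 missed the threshold (adjusted p 0.0523; it passed in 5 of 23 alternatives). Its libraries held 482 ± 14.6 CPM with AML874 and 487 ± 18.5 CPM with SEL120-34A at 24 h, against 411 ± 13.8 CPM with DMSO. BCL2L11, the pro-death protein BIM that BCL2 binds, opened from 0.074 to -0.19 (interaction -0.26 ± 0.047). At 24 h it was at 47.8, 45.03 and 48.6 CPM with SEL120-34A, above every AML874 library (40.9, 41.6 and 42.0 CPM) and every DMSO library (41.4, 43.1 and 43.3 CPM). BMF, another pro-death member, narrowed from -0.72 to -0.34, with its call lost in 8 of 23 alternatives, and BAX, which permeabilises mitochondria, opened to -0.10 at an adjusted p of 0.0495 that was lost in 18 of 23. MCL1 and BCL2L1, the other survival proteins, had -0.062 ± 0.033 and 0.10 ± 0.060, and neither passed.

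Of 21 glycolysis and 21 hypoxia response genes, 0 were called in either direction (an unadjusted p under 0.05 was reached by 3 and 0 of them, and DESeq2's Wald test called 0 and 0), and the hypoxia genes varied between libraries of 1 group as given above. Of 31 p53 targets, 2 were called, and of 39 cytosolic ribosomal protein genes, 2. Histone genes gave 3 of 19, TGF-beta targets 4 of 17, ERK output genes 4 of 14 and D cyclins and their partners 4 of 14. Liver X receptor genes gave 3 of 11 and progenitor genes 7 of 29. Over all genes tested 17.7% were called, and over protein-coding genes 24.8%. The 5 lower progenitor genes were 3 without replicate 2 of SEL120-34A at 8 h or without both replicate 2 libraries. STAT5 targets gave 3 higher and 4 lower of 18, and NF-kappaB genes 6 higher and 2 lower of 27 (3 higher without replicate 1 of AML874 at 8 h). Of the STAT5 list, SOCS3, a feedback inhibitor of cytokine signals, closed from 0.44 to -0.12, and PIM1, a survival kinase, from -0.26 to 0.0067. Of the NF-kappaB list, CXCL1, a neutrophil chemokine, closed from -0.38 to 0.15.

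**Figure D4:**
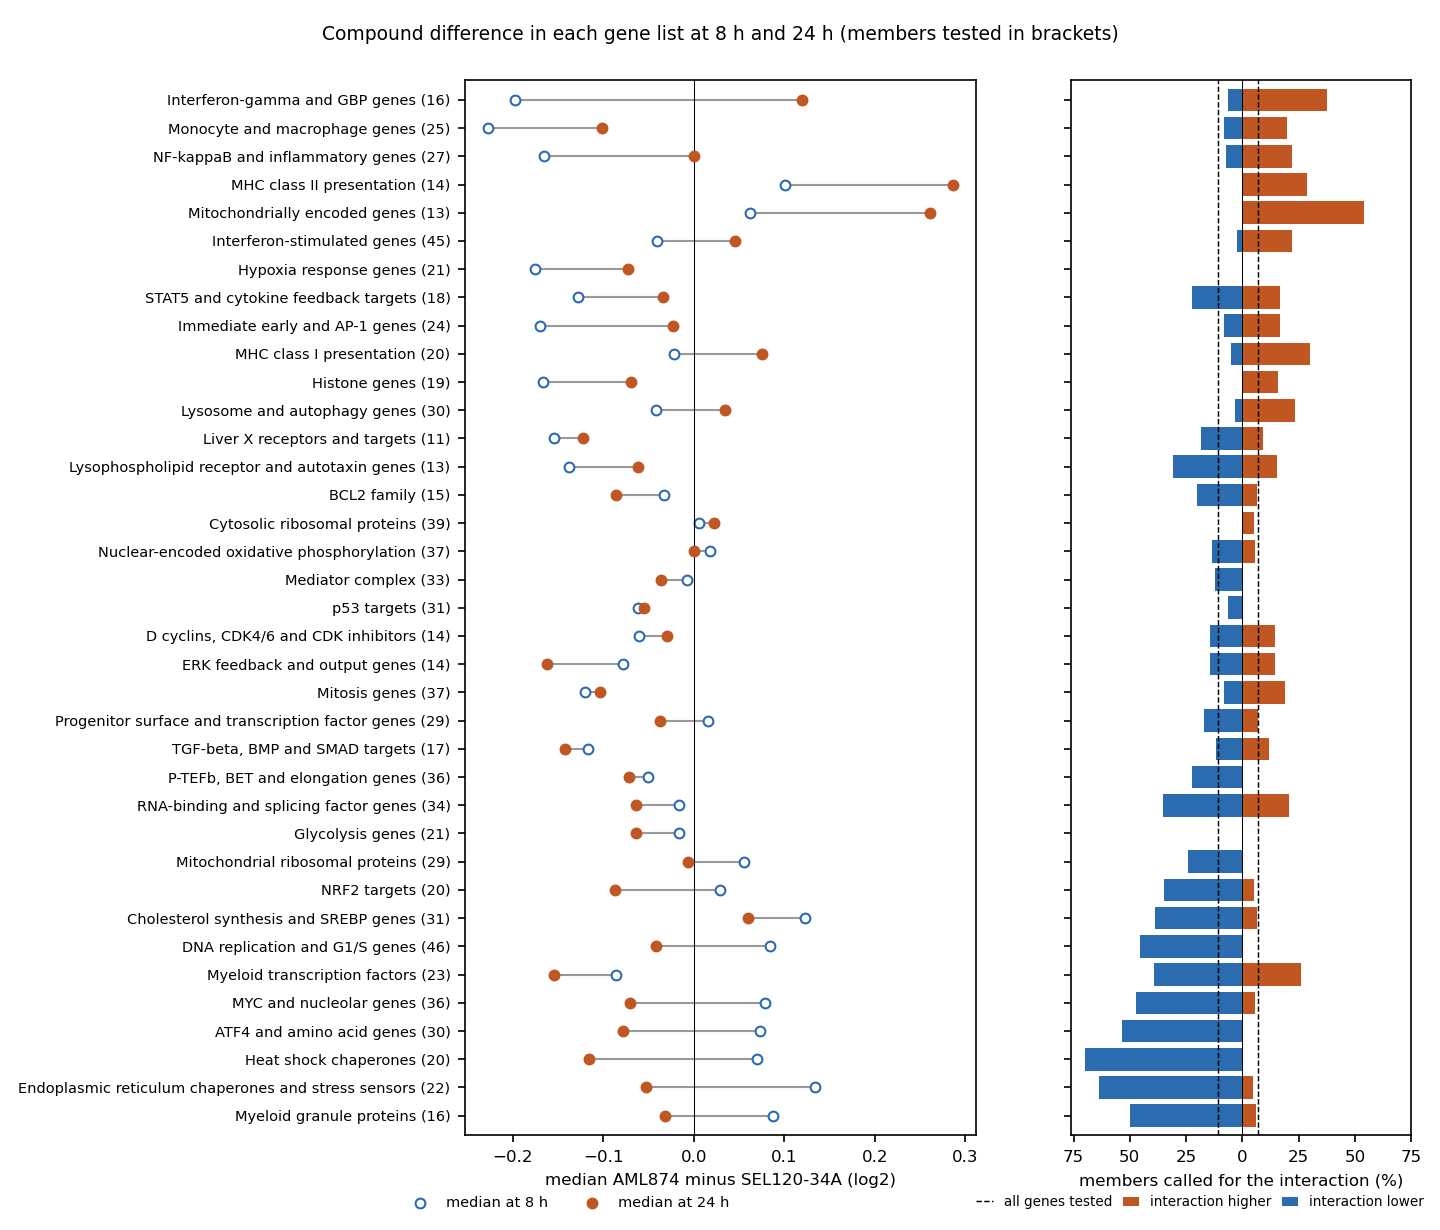
Left, median compound difference (log2, x axis) of the tested members of each of 37 gene lists at 8 h (open) and at 24 h (filled), ordered by the median interaction; right, share of the members called for the interaction (%), higher to the right and lower to the left, with dashed lines at the shares of all genes tested (7.02% and 10.7%). Interferon-gamma and mitochondrially encoded genes move right between the times, and granule protein, endoplasmic reticulum, heat shock and ATF4 genes move left.

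The direction of the calls differed with the level of the gene. Below 1 CPM, 145 genes had a higher and 55 a lower interaction, and at 100 CPM or more 216 were higher and 812 lower. The share called rose from 2.68% to 38.4% over the same range as the median standard error fell from 0.529 to 0.0384. Genes of 20 to 100 CPM had 29.6% called, with 538 higher and 1079 lower. The list counts above are set against all genes tested or protein-coding genes and not against genes of like level. The part of level in the list counts was not tested. Protein-coding genes made up 3305 of the calls (24.8% of those tested), antisense genes 103 (6.07%), long intergenic RNAs 94 (6.77%) and processed pseudogenes 17 (0.848%). The share of higher calls was 39.7% in the fit used and 51.5% with library totals alone as the scaling. With library totals alone the median interaction of all genes was 0.027 in place of 0.000398. It also depended on the filter: the share was 48.6% with a filter of 1 CPM in 3 libraries and 44.7% with no filter. The other alternatives gave 36.2% to 42.4%.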

How the data were processed

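Per the labels' protocols, RNA was isolated from the cells by TRIzol and column cleanup, and libraries were made after poly(A) selection. The authors deposited a table of read counts per gene for each of the 18 libraries, with unstranded, forward and reverse columns, and a table of RSEM expected counts per gene. Per the submitters' processing notes, STAR 2.7.1a, RSEM 1.3.2 and the build GRCh38 were used; the release of the annotation is not given in the sources used here. The reverse counts were analysed, since the forward column held 6.3 to 6.7% as many reads. The files held 60609 gene identifiers, of which 60295 were given a symbol and 58502 were in GENCODE release 29, the source of gene types and positions. Lines that name no gene were left out of library sizes.

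Genes were filtered with filterByExpr by group, which left 20920 genes and removed 0.0163% of counts, scaled by TMM and fitted with 6 group means in edgeR 4.0.16 (R 4.3.3) by the robust quasi-likelihood method, with 12 residual degrees of freedom. The 3 contrasts were the compound difference at 8 h, that at 24 h and their difference, the interaction, with calls made where the p adjusted by Benjamini-Hochberg over all genes tested was under 0.05; the changes with time came from the same fit. CPM are counts per 1e6 TMM-scaled counts, and ± after a log2 value is its standard error. The depth, 98975944 to 142496541 counts over the 18 libraries, gave a median standard error of 0.059 for the interaction over genes of at least 1 CPM. The procedure was tested on simulated data.

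Genes were named by rule: of protein-coding genes called for the interaction whose mean reached 5 CPM in a compound group, the 6 with the largest interaction each way among diverging and among converging genes and 3 each way among crossed genes, then up to 4 members of each list by p, and a fixed set of genes of this pathway and response. Some genes the rule selects are not reported here. Members and lists were chosen with earlier results of these data known, so list counts are descriptions with no test of their own. Promoter sequences are from RefSeq (GRCh38.p14, 250 bases before to 50 after the start), searched on both strands in the 250 bases before it. The alternatives were DESeq2 1.42.0, its size factors in edgeR, limma-voom (limma 3.58.1), library totals alone, a filter of 1 CPM in 3 libraries and none, unstranded counts, rounded RSEM expected counts, no DMSO libraries, a replicate block, each compound library left out, and, added after seeing the data, both replicate 2 libraries of SEL120-34A left out.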

Additional observations from a re-analysis of the deposited data

Results flagged for a closer look

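The interaction is a test of whether the compounds' difference at 24 h was the same as at 8 h, and 3704 genes passed it. The genes below, named by the rule or fixed for this comparison, passed it and thus had a compound difference that was not the same at the 2 times. Of the diverging genes, the log2 interaction was 1.06 for ID2, 0.74 for CCR1, 0.64 for TMEM263, 0.61 for IFI16 and 0.58 for NEB, and -1.55 for SERPINB10, -1.49 for CLEC5A, -1.28 for SERPINB2, -1.22 for MPO, -0.83 for MGAM and -0.52 for TSHZ3. Of the converging genes, it was 1.14 for TMEM71, 1.09 for CD69, 1.00 for RXFP1, 0.85 for SCART1, 0.81 for SLC44A2 and 0.78 for H2AC6, and -0.60 for THRAP3, -0.60 for MSMO1, -0.59 for TNFRSF8, -0.56 for INSIG1 and -0.54 for ACTR3B. Of the crossed genes, it was 1.13 for GBP4, 0.84 for CACNB4 and 0.72 for FILIP1L, and -1.15 for MS4A3, -1.01 for TSPOAP1 and -0.92 for STOX2. Among the genes fixed for the pathway, it was 1.33 for EGR1, 0.38 for BMF, 0.23 for MS4A4A, 0.22 for MPEG1, -0.10 for BAX, -0.25 for MED13 and -0.26 for BCL2L11.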

How the results depend on the processing

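The count of genes called for the interaction was 3030 to 4053 when each compound library was left out (1101 to 1578 higher and 1807 to 2475 lower), against 5506 to 6739 for the compound difference at 8 h and 3067 to 4209 at 24 h. The same left-out libraries gave 567 to 975 diverging, 1877 to 2355 converging and 263 to 488 crossed genes, and the lowest counts of diverging and crossed genes came from leaving out replicate 1 of SEL120-34A at 24 h. Between 78.3% and 99.8% of the 3704 calls were kept in each alternative. With a replicate block 3536 genes were called, 3497 of them among the 3704. Same-numbered libraries did not in general deviate together (correlations of -0.335 to 0.352 over 45 pairs, 3 of 18 libraries closest to their own number). The numbers were therefore not taken as pairs. Replicate 2 of SEL120-34A did stand apart at both times, with the higher hypoxia-response genes given above. Such a library was not limited to SEL120-34A. In DMSO cells at 8 h, replicate 3 had a mean log2 CPM of 5.195 for these genes, against 4.703 and 4.448. In AML874 cells at 24 h, replicate 1 had 5.22, against 5.025 and 4.868. Over 185 named genes and 23 alternatives, 4073 of 4249 values stayed called or stayed uncalled, 148 lost the call and 28 gained it. Of values called in the fit used or in the alternative, 0 turned sign. Values called in neither were not checked for sign, and some turned, as for HEXIM1 (-0.012, with alternatives from -0.037 to 0.054). List counts of 10 or more moved by over 1.5 times in 9 of 184 values, and those under 5 in 130 of 1150. The cause of these shifts was not tested. Depth limits the calls most below 1 CPM, where the median standard error was 0.529.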
